A study of Mus musculus with 8 samples.

Results

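Agt-negative astrocytes of the hippocampus are described here: cells that carry astrocyte genes and in which no UMI of Agt was counted (a UMI, unique molecular identifier, stands for 1 captured mRNA molecule). Single cells were taken from the hippocampus of Foxp3-DTR mice that had all received diphtheria toxin. One library came from Foxp3-DTR- littermates (called DTRneg) and one from Foxp3-DTR+ mice (called DTRpos), and the toxin kills the Foxp3-expressing regulatory T cells of the latter. Each library pooled 2 mice, so there is 1 sample per genotype, and the labels used here give no age and no time between toxin and sampling. Cells negative for CD45 and Thy1 were sorted, a gate that leaves out immune cells and most neurons. The question of the hippocampal libraries was which changes follow a transient depletion of regulatory T cells.

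A cell was a member when it had at least 500 detected genes, under 15% mitochondrial UMIs, a UMI of at least 4 of 8 astrocyte genes (Aqp4, Gja1, Gjb6, Ntsr2, Aldoc, Slc1a2, Slc4a4 and Cldn10), no Agt UMI, and no UMI of Mog, Pdgfra, Cldn5 or Riiad1. The members were thus chosen by their own counts of these 13 genes, which are given below as a description and enter no test. The rule found 984 cells among 12954 hippocampal cells that passed the filters and 61745 barcodes in the gene tables of the whole series. DTRneg held 468 of them, 6.59% of its 7105 passing cells (exact 95% binomial interval 6.02 to 7.19%), and DTRpos held 516, 8.82% of 5849 (8.11 to 9.58%). Another 424 and 497 cells passed the same gate with at least 1 Agt UMI and are called Agt-positive astrocytes. These were 5.97% and 8.50% of passing cells, all gated astrocytes 12.6% and 17.3%, and oligodendrocytes 49.0% and 40.2%. The intervals cover counting error only, with 1 library per genotype. The libraries held 53484704 and 35814655 UMIs in all. They shared 18 barcodes, and 1 of these was a member in both.

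Astrocytes clear glutamate and potassium from the space around synapses, couple to each other through gap junctions, and make most of the lipoprotein of the brain. Agt encodes angiotensinogen, the precursor of the angiotensin peptides, which in the brain is made chiefly by astrocytes and more by those of the hypothalamus and brainstem than by those of the cortex and hippocampus. Hsd11b1 encodes the enzyme that turns inactive into active glucocorticoid, Lcat the enzyme that esterifies the cholesterol of lipoproteins, and Clu the lipoprotein clusterin. In the hippocampus the radial stem cells of the dentate gyrus share most astrocyte genes and are told apart by genes of proliferation and of the neuronal lineage.

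Absence of an Agt UMI is a matter of depth as well as of the cell. In mouse GRCm38 the Agt gene lies on the minus strand of chromosome 8 (124556534 to 124569706). Of the gated astrocytes, 52.5% of DTRneg (49.1 to 55.8%) and 50.9% of DTRpos (47.8 to 54.1%) had no Agt UMI. Among gated cells with 1000 to 2000 UMIs the share was 80.7% in DTRneg and 74.9% in DTRpos, and among those with 4000 to 8000 UMIs it was 40.1% and 44.9%. Members were shallower than Agt-positive cells, with medians of 3188 against 4296.5 UMIs in DTRneg and 2830 against 3314 in DTRpos. A count of 0 at the median depth of a member allows a level of up to 941 CPM in DTRneg (CPM is the usual scale on which the UMIs of a gene are divided by all UMIs of the cells summed) and 1060 CPM in DTRpos (3 counts; counting error only), while the summed Agt level of Agt-positive cells was 505 and 628 CPM. A single member is therefore not shown to lack Agt at the level that the Agt-positive cells have. When every cell was thinned at random to 2000 UMIs, an Agt UMI remained in 62.7% and 75% of the Agt-positive cells deep enough to be thinned. Among oligodendrocytes, cells that should lack it (median 7469 and 6023 UMIs), 0.575% and 0.553% had an Agt UMI. These cells were chosen to hold a UMI of at most 1 of the 8 astrocyte genes. That choice also leaves out cells rich in free astrocyte RNA, so the shares may understate the background from free RNA.

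Astrocyte genes that the rule did not use were found in nearly all members. Thinned to 2000 UMIs, which left 313 members in DTRneg and 343 in DTRpos, a UMI of Clu was present in 98.1% and 98.5% of members, of the glutamate transporter gene Slc1a3 in 98.1% and 97.7%, and of Apoe in 99.7% and 100%. The corresponding shares in oligodendrocytes were 4.83% and 4.75% for Clu and 9.70% and 8.79% for Slc1a3, but 79.0% and 82.8% for Apoe. The way these cells were chosen may likewise lower this background of free RNA. Forebrain transcription factors were found in a part of the cells: Lhx2 in 38.0% and 23.3% and Emx2 in 18.8% and 16.9%, against at most 0.557% in oligodendrocytes. The list of 8 microglia and immune markers summed to 46.0 and 57.0 CPM, with a UMI in 13.2% and 14.5% of members, and Cx3cr1, C1qa, Tmem119, Ptprc and Ctss of this list were at 0 in the members of both libraries.

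**Figure D1:**
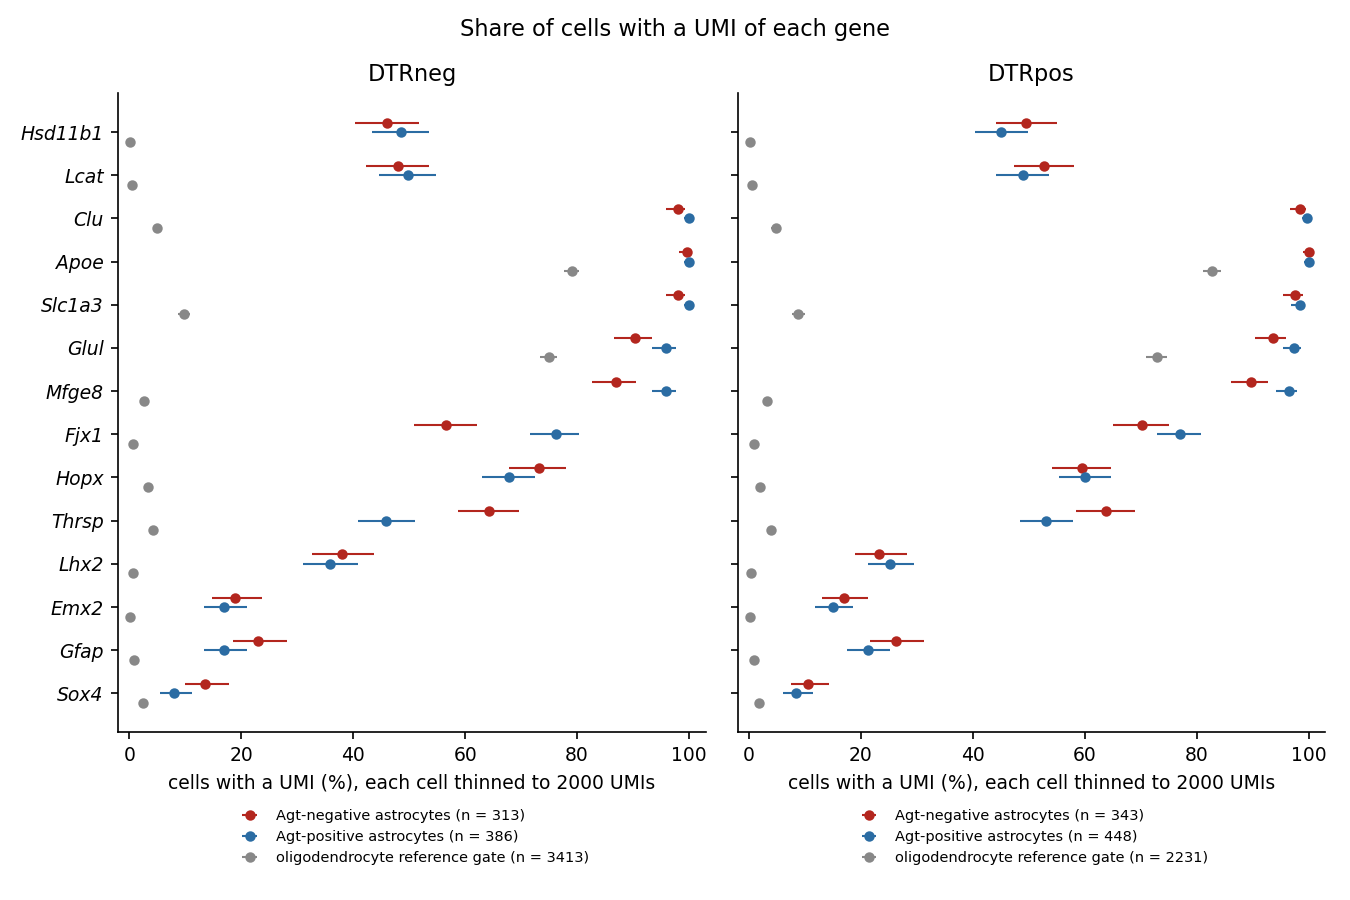
Percent of cells with a UMI of each gene (x axis) in Agt-negative astrocytes, Agt-positive astrocytes and oligodendrocytes, each cell thinned to 2000 UMIs, in DTRneg (left) and DTRpos (right). Points are shares and bars exact 95% binomial intervals; Hsd11b1, Lcat and the forebrain factors overlap between both astrocyte groups, Thrsp lies higher and Mfge8 and Fjx1 lower in the Agt-negative cells.

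Cells at the edge of 4 astrocyte genes stood lower in Hsd11b1 and Clu than all members together. Members with exactly 4 of the 8 astrocyte genes (40 and 41 cells) had 66.4 and 135 CPM of Hsd11b1 and 4218 and 4570 CPM of Clu. Cells just outside, with 3 of the 8 genes (39 and 40 cells), had 27.5 and 85.9 CPM of Hsd11b1 and 1370 and 1489 CPM of Clu. Across the Agt threshold the step was small: cells with 1 Agt UMI (174 and 209) had 503 and 429 CPM of Hsd11b1, and members had 454 and 496 CPM. In the 88 and 97 members just above the limit of 500 detected genes Hsd11b1 stood at 529 and 602 CPM, and in cells just below that limit (53 and 116) at 596 and 519 CPM. Members with 10 to 15% mitochondrial UMIs (23 and 17) had 412 and 445 CPM of Hsd11b1, and the 6 and 6 cells just above 15% had 112 and 421 CPM.

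Hsd11b1 was present in about as many Agt-negative as Agt-positive astrocytes once depth was equal. Without thinning, 54.1% of members in DTRneg and 57.0% in DTRpos had a Hsd11b1 UMI, against 69.1% and 59.6% of Agt-positive cells. At 2000 UMIs the shares were 46.0% and 49.6% of members against 48.4% and 45.1%, with overlapping intervals in each library, and 0.117% and 0.179% of oligodendrocytes. Summed over the members, Hsd11b1 stood at 454 CPM in DTRneg and 496 CPM in DTRpos, and over Agt-positive cells at 422 and 418 CPM. The log2 fold change between the 2 groups was 0.16 ± 0.08 (SE; edgeR quasi-likelihood test over 9822 genes, adjusted p = 0.384), which did not pass. The gene lies on the minus strand of chromosome 1 (193221634 to 193264075).

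Lcat likewise did not pass. It stood at 411 CPM in the members of DTRneg and 495 CPM in those of DTRpos, and at 416 and 425 CPM in Agt-positive cells, a log2 fold change of 0.09 ± 0.09 (SE; edgeR, adjusted p = 0.715). At 2000 UMIs, 47.9% and 52.8% of members had a Lcat UMI against 49.7% and 48.9% of Agt-positive cells. For Clu the members had 7262 and 7225 CPM and the Agt-positive cells 6878 and 6933 CPM (0.06 ± 0.05, SE; edgeR, adjusted p = 0.682). Set against cells with 3 or more Agt UMIs alone, Hsd11b1 (0.32, edgeR adjusted p = 0.0393) and Lcat (0.33, edgeR adjusted p = 0.037) did pass. That is the one alternative of 13 in which either did, and Clu passed in none.

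Within the members, these genes were unevenly spread from cell to cell. In DTRneg 54.0% of the thinned members had no Hsd11b1 UMI, 21.1% had 1, 14.7% had 2 and 10.2% had 3 or more, up to 8 in a cell. In DTRpos the shares were 50.4%, 22.7%, 11.7% and 15.2%, up to 6 in a cell. Clu was found at 3 or more UMIs in 94.2% and 95% of members, with a median of 13 UMIs in both. Lcat was met more often in members with a Hsd11b1 UMI, in 54.2% of 144 cells against 42.6% of the 169 without in DTRneg, and in 58.2% of 170 against 47.4% of 173 in DTRpos. The members' 5 richest cells held 8.18% and 7.34% of all Hsd11b1 UMIs. At 2000 UMIs, members with a Gfap UMI (72 and 90) had Hopx, a gene of radial stem cells and astrocytes, in 86.1% against 69.3% of the others in DTRneg and in 70.0% against 55.7% in DTRpos.

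The members were next compared with the Agt-positive astrocytes over all other genes, to see what goes with the absence of an Agt UMI. The groups also differed at the edge of the gate. Requiring at least 5 of the 8 astrocyte genes kept 428 of 468 members in DTRneg and 475 of 516 in DTRpos. It kept 420 of 424 and 492 of 497 Agt-positive cells. UMIs were summed per library and group, and the 4 sums were tested with edgeR with the library as a block. Of 9822 genes, 211 were called higher in Agt-negative astrocytes (2.15%) and 112 lower (1.14%) at an adjusted p under 0.05, and 322 of the 323 had the same direction in both libraries. Stem cell and stress genes and a lipogenic gene, Thrsp, were among those higher, and genes of GABA uptake, a potassium channel and secreted matrix proteins among those lower. Most called changes were small, with a median log2 fold change of 0.57 for the higher and -0.48 for the lower genes. Cells are not replicates, the test rests on 2 libraries of pooled mice, and its p-values measure only the spread between these sums. With 4 sums a gene has little spread of its own, so the p-values lean largely on spread that edgeR shares across genes. The count of calls depended on the processing: it was 62 without the block, 85 with DESeq2, 28 with cells thinned to 2000 UMIs, 102 with at least 5 of the 8 astrocyte genes, 63 without the 5 cells of each sum richest in stem cell genes, and 0 (with 1304 genes at an unadjusted p under 0.05) with no filter on low counts.

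Thrsp was higher in the Agt-negative cells in the main test and in 12 of 13 alternatives. It encodes a nuclear protein of lipid synthesis that is known from slowly dividing stem cells of the dentate gyrus. Its level was 855 CPM in the members of DTRneg and 830 CPM in those of DTRpos, against 497 and 525 CPM in Agt-positive cells. Both member sums lay above both Agt-positive sums, with a log2 fold change of 0.71 ± 0.08 (SE; edgeR, adjusted p = 1.37e-06). At equal depth 64.2% and 63.8% of members had a Thrsp UMI against 45.9% and 53.1% of Agt-positive cells and 4.1% and 3.9% of oligodendrocytes. Only 5 other genes were called in as many alternatives, and these 6 were singled out after their values were seen. They are Mfge8 and Fjx1, both lower, and the ribosomal protein genes Rps24, Rps4x and Rps27a, higher by 0.56 to 0.58 on the log2 scale. DESeq2 gave some other genes no adjusted p, so these could not reach the same count. Genes such as Tmsb10, Lrig1 and 2310022B05Rik were called in 11 of 12 alternatives. Their call was likewise lost only with no filter on low counts.

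Mfge8 encodes a secreted protein that bridges phosphatidylserine on dying cells to phagocytes, and marks astrocytes of the telencephalon. It stood at 1517 and 1774 CPM in the members against 2072 and 2462 CPM in Agt-positive cells, a log2 fold change of -0.48 ± 0.06 (SE; edgeR, adjusted p = 1.67e-05). The gene lies on the minus strand of chromosome 7 (79133768 to 79149060). Fjx1, a Golgi kinase-like gene of the planar polarity pathway, stood at 621 and 733 CPM against 912 and 1063 CPM (-0.56 ± 0.07, SE; edgeR, adjusted p = 1.67e-05). For both genes each library alone gave the same direction and nearly the same size. Their 5 richest members held at most 8.62% of the UMIs of Fjx1 and at most 5.23% of those of Mfge8.

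**Figure D2:**
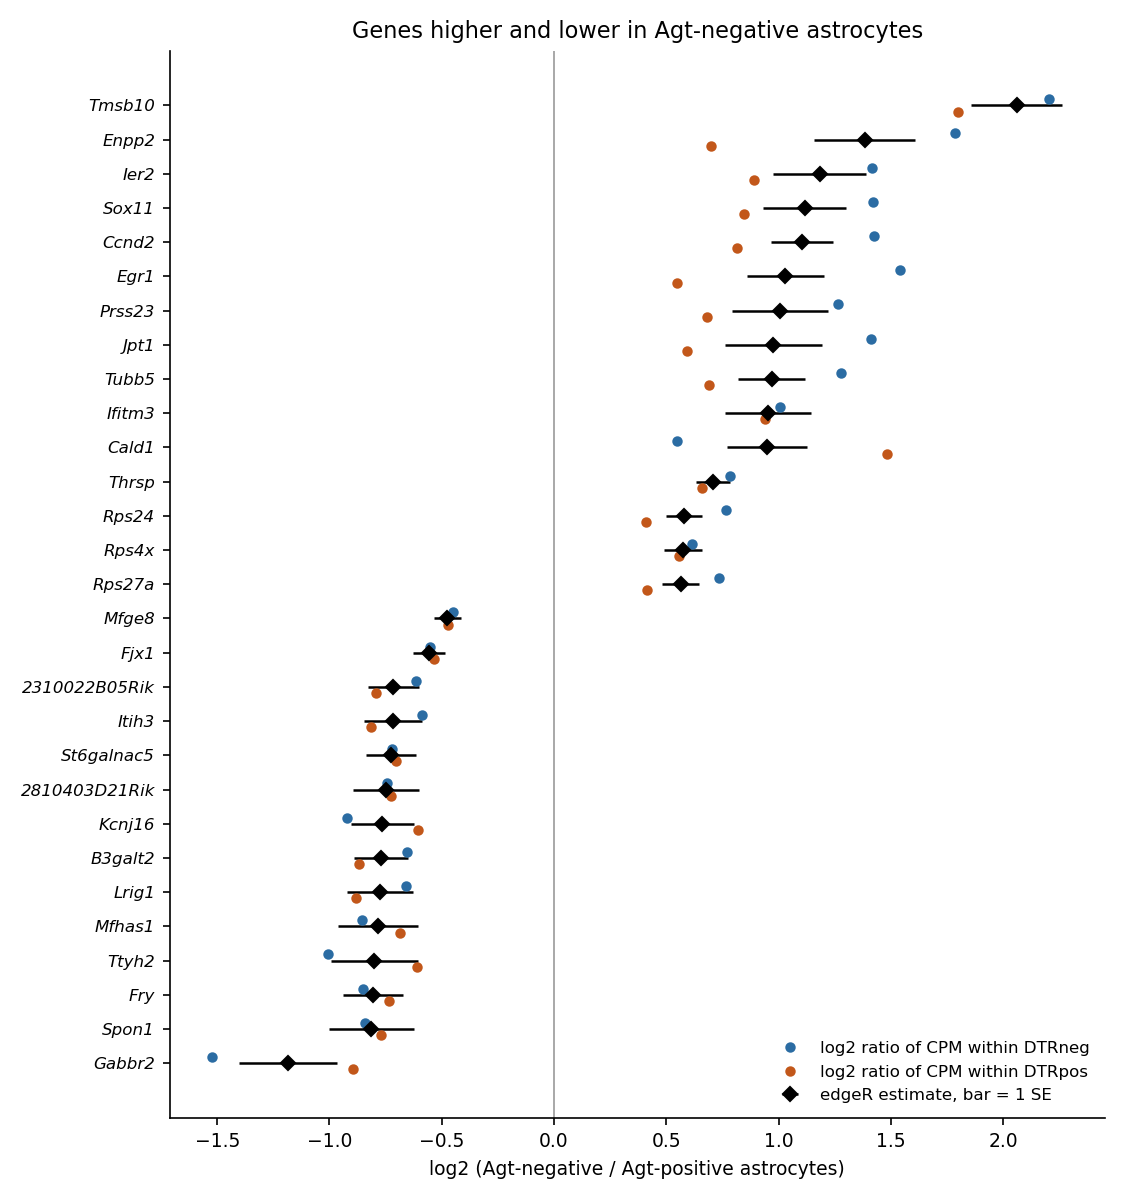
log2 ratio of Agt-negative over Agt-positive astrocytes (x axis) for called genes with the highest and lowest fold changes and the 6 genes called in nearly every alternative. Diamonds are edgeR estimates with 1 SE, and points are ratios of CPM within DTRneg and DTRpos; every point lies on the side of its estimate.

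The 12 genes with the highest fold changes among those eligible (mean log2 CPM of at least 5) included Tmsb10, Enpp2, Ier2, Sox11, Ccnd2, Egr1, Prss23, Jpt1, Tubb5, Ifitm3 and Cald1. Ccnd2, the cyclin of dividing progenitors, stood at 163 and 136 CPM against 60.8 and 77.6 CPM (1.10 ± 0.14, SE; edgeR, adjusted p = 1.44e-05). Of the Ccnd2 UMIs, 52.5% and 48.5% lay in 5 members, against 16.1% and 12.5% in 5 Agt-positive cells. Tmsb10, a thymosin that binds actin monomers, had the highest value (2.06 ± 0.20, SE; edgeR, adjusted p = 5.75e-07), with 64.2% and 66.7% of its UMIs in 5 members. Without the 5 cells of each sum richest in stem cell genes, Tmsb10 (1.40, edgeR adjusted p = 0.0218) still passed. Sox11 (0.38, edgeR adjusted p = 0.520) and Ccnd2 (0.69, edgeR adjusted p = 0.189) did not. Sox11 is itself on the list by which these cells were picked.

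The 12 lowest were Gabbr2, Spon1, Fry, Ttyh2, Mfhas1, Lrig1, B3galt2, Kcnj16, 2810403D21Rik, St6galnac5, Itih3 and 2310022B05Rik. Gabbr2, a subunit of the GABA-B receptor, stood at 15.1 and 25.2 CPM in the members against 43.4 and 46.8 CPM (-1.18 ± 0.22, SE; edgeR, adjusted p = 0.00118). Kcnj16, an inward rectifier potassium channel that works with Kcnj10, stood at 53.5 and 75.5 CPM against 101 and 115 CPM (-0.76 ± 0.14, SE; edgeR, adjusted p = 0.00106). Itih3, which encodes a chain that binds hyaluronan, stood at 76.2 and 78.8 CPM against 115 and 139 CPM (-0.72 ± 0.13, SE; edgeR, adjusted p = 0.000862). Lrig1, a transmembrane regulator of growth factor receptors, stood at 59.8 and 47.0 CPM against 94.4 and 86.7 CPM (-0.77 ± 0.15, SE; edgeR, adjusted p = 0.00175). In these 12 genes 5 members held 7.19 to 45.8% of the UMIs of a library, lowest for 2310022B05Rik and highest for Gabbr2. After thinning to 2000 UMIs, 10 of the 12 lower genes and 8 of the 12 higher genes lost their call. Among these were Gabbr2 (-1.20, edgeR adjusted p = 0.106), Kcnj16 (-0.77, edgeR adjusted p = 0.131) and Itih3 (-0.51, edgeR adjusted p = 0.239), while Lrig1 (-0.88, edgeR adjusted p = 0.0480) and 2310022B05Rik (-0.70, edgeR adjusted p = 0.0368) still passed.

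For some of the higher genes a few cells held most of the UMIs. In 48 of the 211 higher genes, 5 members of a library held at least 50% of the gene's UMIs. Among the 112 lower genes this was so for 4. Only members were counted, so a gene held by few Agt-positive cells, which would be lower, does not show. The 48 and 4 are therefore not set against each other, and the share over all tested genes is not given here. Vtn, which encodes vitronectin and marks pericytes, stood at 63.0 and 45.7 CPM against 10.3 and 4.57 CPM, and 99.0% and 92.8% of its UMIs lay in 5 members. Of the 22 and 32 UMIs of the chemokine gene Cxcl10, the 5 richest members held 95.5% and 100%. Ttr, the transthyretin gene of the choroid plexus, stood at 1313 CPM in the members of DTRneg and 27.2 CPM in those of DTRpos, against 90.1 and 35.4 CPM in Agt-positive cells. It was called (edgeR adjusted p = 1.37e-06) although its direction differed between the libraries, and 1 member of DTRneg held 1237 of its 2085 UMIs. Scrublet, a doublet caller, marked 8 and 3 members, which were kept in the main values.

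**Figure D3:**
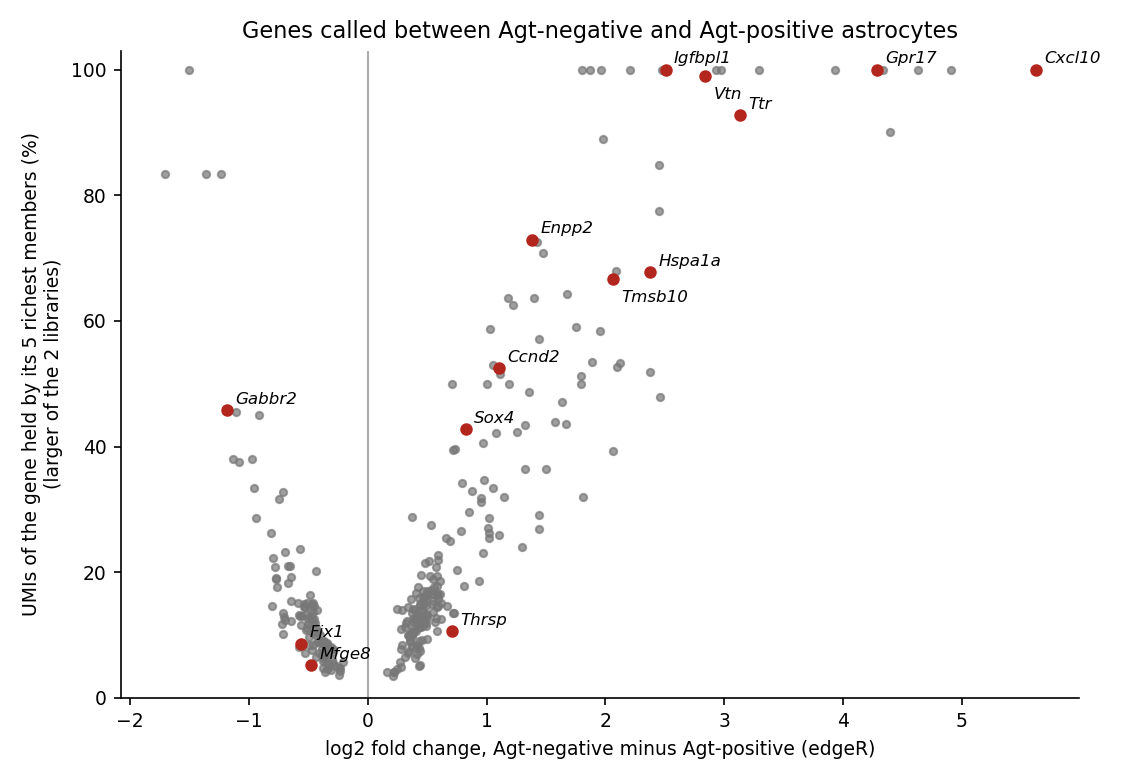
Each point is 1 of the 323 called genes: its log2 fold change (x axis) against the percent of its UMIs held by its 5 richest members, the larger of both libraries (y axis). Thrsp, Mfge8 and Fjx1 lie near the bottom, Vtn, Ttr, Cxcl10 and Gpr17 near the top.

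Markers of other cell types are given for whole lists. Some lists were spread over many members and others collected in few. Cells with a UMI of Mog, Pdgfra, Cldn5 or Riiad1 were left out beforehand. The rule may thus lower the lists of cell types that carry these genes, in both astrocyte groups. The oligodendrocyte list summed to 635 CPM in DTRneg and 648 CPM in DTRpos, against 570 and 645 CPM in Agt-positive cells. A UMI of it was found in 81.4% and 78.1% of members, and 5 members held 13.1% and 9.60% of its UMIs. The precursor (OPC) list summed to 223 and 207 CPM against 195 and 211 CPM. The neuroblast list summed to 293 and 251 CPM against 139 and 127 CPM, with 45.2% and 42.0% of it in 5 members against 20.2% and 10.3% in 5 Agt-positive cells. The pericyte list summed to 166 and 160 CPM against 87.4 and 81.0 CPM, with 57.2% and 37.8% in 5 members. The choroid plexus list summed to 1402 and 55.0 CPM against 113 and 53.1 CPM, with 91.3% of it in 5 members of DTRneg. The endothelial list stood at 55.4 and 29.1 CPM against 19.0 and 21.1 CPM, and the neuron list at 43.5 and 44.4 CPM against 23.3 and 31.4 CPM. The ependymal list summed to 120 and 139 CPM against 113 and 144 CPM, with a UMI in 26.7% and 27.3% of members, and its gene Mia was called higher. Kl was at 0 among the choroid markers, and Foxj1, Ccdc153 and Tmem212 among the ependymal ones, in the members of both libraries. The part of such cells in the calls was not tested beyond the 2 alternatives that leave out the cells richest in stem cell or choroid plexus genes.

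By function, several genes of the stem cell list were called higher. Of 20 stem cell and progenitor genes, 12 were tested, 6 were called higher, among them Eomes, Sox11, Sox4, Vim and Hopx, and Egfr and Hes5 were lower. The median log2 fold change of the 12 was 0.78, against -0.0018 over all 9822 genes. Hopx, found in quiescent radial stem cells and many astrocytes, stood at 1096 and 736 CPM against 806 and 617 CPM (0.34 ± 0.07, SE; edgeR, adjusted p = 0.00599), a call made in 6 of 13 alternatives. Hes5, a target of Notch signalling, stood at 306 and 291 CPM against 361 and 444 CPM (-0.44 ± 0.09, SE; edgeR, adjusted p = 0.0056). Eomes, a marker of intermediate progenitors, was held by 7 members of DTRneg and by 1 of DTRpos, which alone had 17 UMIs. With the 5 richest cells of each sum left out, 1 of the 11 genes still tested was higher and 0 lower (edgeR, adjusted p under 0.05), and at 2000 UMIs 1 of 9. Those 5 cells were picked by this same list, so a loss of its calls is built into that step. Over all genes the calls also fell there, from 323 to 63.

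Of the genes known from non-telencephalic astrocytes, those called were lower. Of 17 on the list, 7 passed the filter on low counts, all 7 estimates were below 0 (median -0.47), and Itih3, Sparc, Slc6a11 and Slc7a10 were called. Slc6a11, the GABA transporter GAT-3 of astrocytes, stood at 262 and 296 CPM in the members against 357 and 379 CPM (-0.41 ± 0.09, SE; edgeR, adjusted p = 0.00589). Slc7a10, which exchanges serine and glycine, stood at 605 and 587 CPM against 752 and 752 CPM (-0.35 ± 0.07, SE; edgeR, adjusted p = 0.00497). Sparc, a secreted matrix protein, stood at 538 and 452 CPM against 664 and 692 CPM (-0.47 ± 0.08, SE; edgeR, adjusted p = 0.000726). At 2000 UMIs 1 of the 7 was still called, at a median of -0.48, and with cells matched for depth 4 were, at a median of -0.43. Irx1, Irx2, Irx3, Irx5, Pax3 and Gbx2, transcription factors of the brainstem and midbrain, were at 0 in the members of both libraries. They are only a part of the 17 on the list. The genes that passed the filter without being called are not named here. These zeros therefore do not show that the other factors on the list are absent.

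The telencephalic list gave no one direction. Of its 8 genes, all tested, Emx1 was higher and Mfge8 lower. Lhx2 stood at 242 and 161 CPM in the members against 208 and 154 CPM, and Emx2 at 92.6 and 101 CPM against 116 and 95.3 CPM. Neither passed (edgeR adjusted p = 0.612 and 0.688). Emx2 lay lower in the members of DTRneg and higher in those of DTRpos.

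Calls among glutamate and GABA genes were all in one direction. Of 15 tested, 5 were called lower, among them Gabrg1, Slc6a11, Slc7a10 and Gria2, and 0 higher, with a median of -0.21. Of the 15 genes of potassium, water and gap junctions, 3 were lower, among them Kcnj16 and Gpr37l1, and 0 higher, with a median of -0.13. Among 21 genes of cholesterol and lipoproteins 1 was called, lower, and the median was -0.18. Apoe stood at 25204 and 30259 CPM against 25924 and 31220 CPM and did not pass (edgeR adjusted p = 0.575). None of the genes on these 3 lists was called at 2000 UMIs.

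Among 14 glucocorticoid genes the cell cycle inhibitor gene Cdkn1a was called higher, at 11.3 and 11.3 CPM against 2.17 and 1.71 CPM, with 100% and 82.4% of its UMIs in 5 members, and the median was -0.17. The receptor gene Nr3c1 stood at 137 and 140 CPM against 165 and 180 CPM (edgeR adjusted p = 0.125). Gstm5 and Mt3 were higher among 10 metallothionein and antioxidant genes (median 0.11). Mt3, the brain metallothionein, stood at 9144 and 9369 CPM against 7420 and 8397 CPM (0.22 ± 0.05, SE; edgeR, adjusted p = 0.00933), a call made in 5 of 13 alternatives. Among 8 reactive astrocyte genes Lgals1, Vim, S100a10 and Gfap were higher and 0 lower (median 0.35). Vim is also one of the higher genes of the stem cell list, so the lists are not separate evidence. After thinning 0 of the 6 reactive genes still tested were called, and with cells matched for depth 2 of 7. Without the 5 cells of each sum richest in stem cell genes 1 of 8 was called. Gfap, the intermediate filament of reactive astrocytes and radial stem cells, stood at 163 and 180 CPM against 109 and 134 CPM (0.49 ± 0.11, SE; edgeR, adjusted p = 0.00934), a call made in 4 of 12 alternatives. At equal depth 23.0% and 26.2% of members had a Gfap UMI against 16.8% and 21.2%. Of the 24 genes of Notch, Wnt, Shh and FGF signalling, Id1 was higher and Ptch1 and Hes5 lower (median -0.13). Of 20 synaptic and secreted factors, S100a6 was higher and Sparcl1 and Timp3 lower (median -0.15). Sparcl1, the synapse-promoting protein hevin, stood at 4393 and 4579 CPM against 5424 and 5833 CPM (-0.34 ± 0.05, SE; edgeR, adjusted p = 0.000168).

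Calls among stress genes were all higher, and each interferon list gave 1 call, also higher. Over all 9822 genes 2.15% were called higher. Of 17 genes of dissociation and immediate early response, Hspa1a, Hspa1b, Ier2, Egr1, Hsp90aa1 and Jun were higher and 0 lower (median 0.19). Hspa1a, a heat shock protein gene, had UMIs in 20 and 15 members, and 5 of them held 67.8% and 60.0% of these. Of the Jun and Hsp90aa1 UMIs, 5 members held 28.7% and 24.1%, and 22.8% and 19.7%. Jun stood at 576 and 555 CPM against 405 and 461 CPM (0.37 ± 0.08, SE; edgeR, adjusted p = 0.0071). Of 8 type I interferon genes Ifitm3 was higher (40.3 and 63.6 CPM against 20.1 and 33.1 CPM), with all 8 estimates above 0 and a median of 0.73. The call of Ifitm3 was made in 9 of 12 alternatives. It was lost without the block, with no filter on low counts and after thinning. Of 17 interferon gamma genes Cxcl10 was called, with UMIs in only 6 members of DTRneg and 3 of DTRpos, and the median was 0.07.

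Thrsp fell at each step in the number of Agt UMIs in a cell in both libraries, and Mfge8 rose at each step in DTRpos only. In DTRneg Thrsp stood at 855 CPM with no Agt UMI, 592 CPM with 1, 485 CPM with 2 and 391 CPM with 3 or more. In DTRpos it stood at 830, 653, 526 and 382 CPM. Mfge8 stood at 1517, 2004, 1888 and 2352 CPM in DTRneg and at 1774, 2245, 2524 and 2656 CPM in DTRpos. Hsd11b1 stood at 454, 503, 386 and 359 CPM and at 496, 429, 414 and 408 CPM, with its highest value at 1 Agt UMI in DTRneg. Cells with 3 or more Agt UMIs numbered 122 and 160. Depth differed between these classes as well. From 0 to 3 or more Agt UMIs, the median depth was 3188, 3901, 4426 and 4473 UMIs in DTRneg. In DTRpos it was 2830, 3123, 3494.5 and 3492.5 UMIs.

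**Figure D4:**
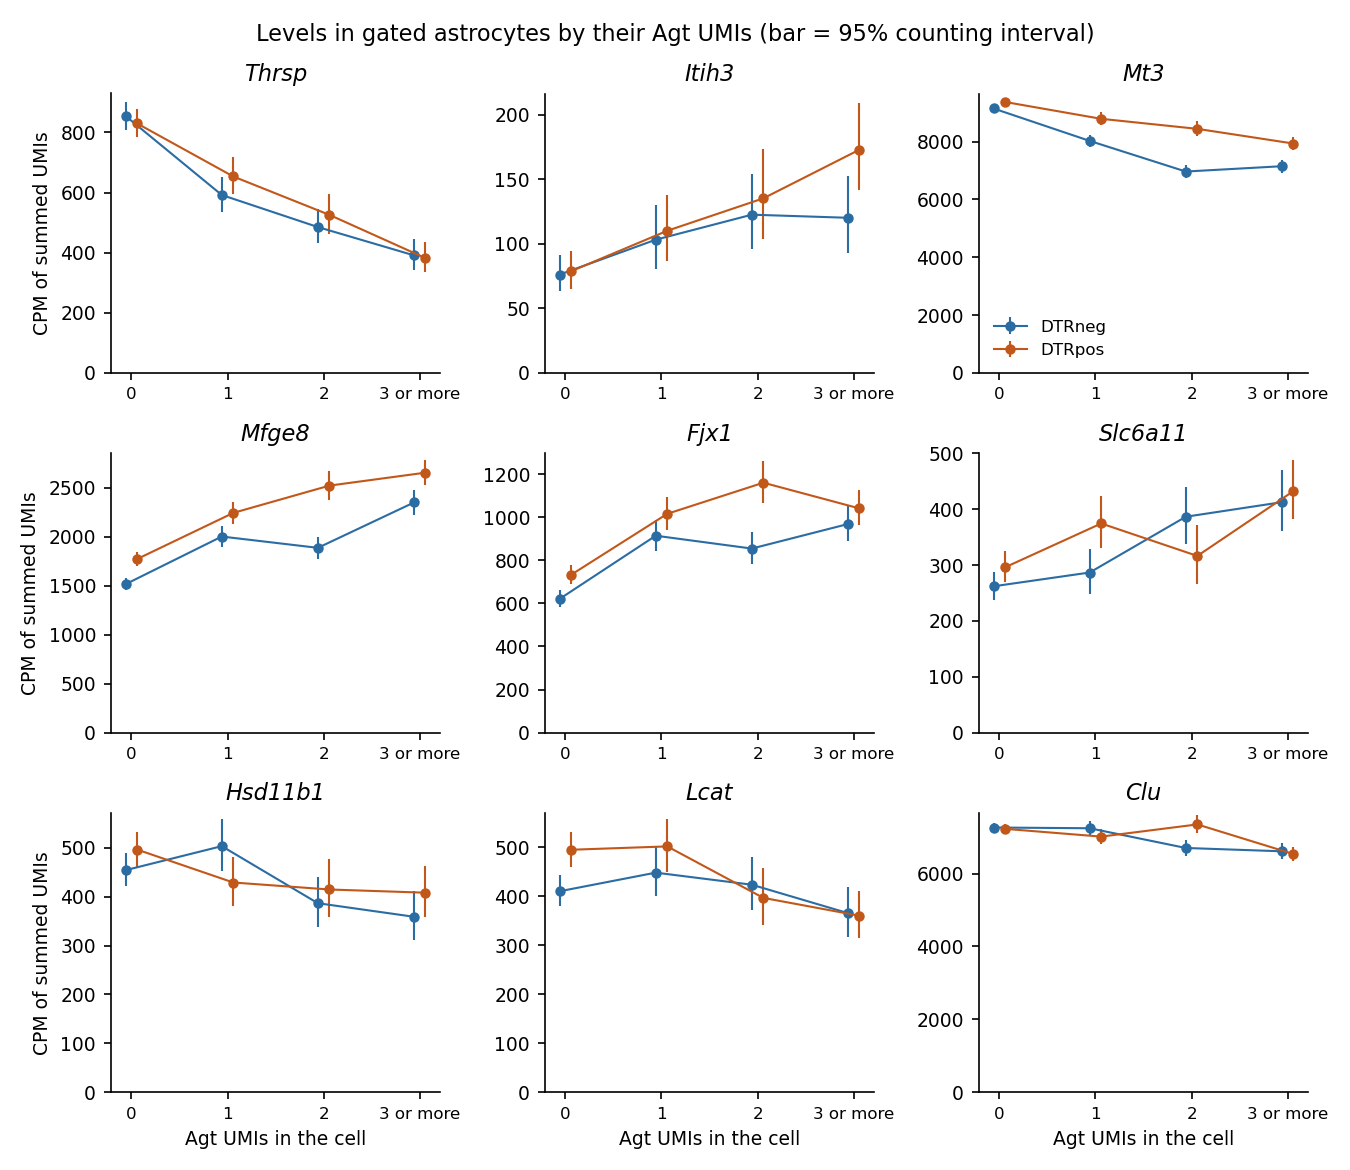
CPM of summed UMIs (y axis, from 0) for 9 genes in gated astrocytes with 0, 1, 2 or at least 3 Agt UMIs (x axis), in DTRneg and DTRpos, with 95% counting intervals. Thrsp is highest in cells with no Agt UMI and Mfge8 lowest there, in both libraries.

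DTRpos was then set against DTRneg within the members. With 1 library per genotype there is no test, and genotype cannot be told apart from any other difference between the libraries. Ratios are given with exact 95% intervals that cover counting error only. The 516 and 468 members had 1510089 and 1588027 UMIs. Of 1557 genes at 100 CPM or more in either library, 1 was past 2-fold higher in DTRpos (0.0642%), Gm42826, and 6 were past 2-fold lower (0.385%): Ttr, Tmsb10, Rpl35, Ubb, Rps28 and Rpl38. The median log2 ratio of all 1557 was 0.03.

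**Figure D5:**
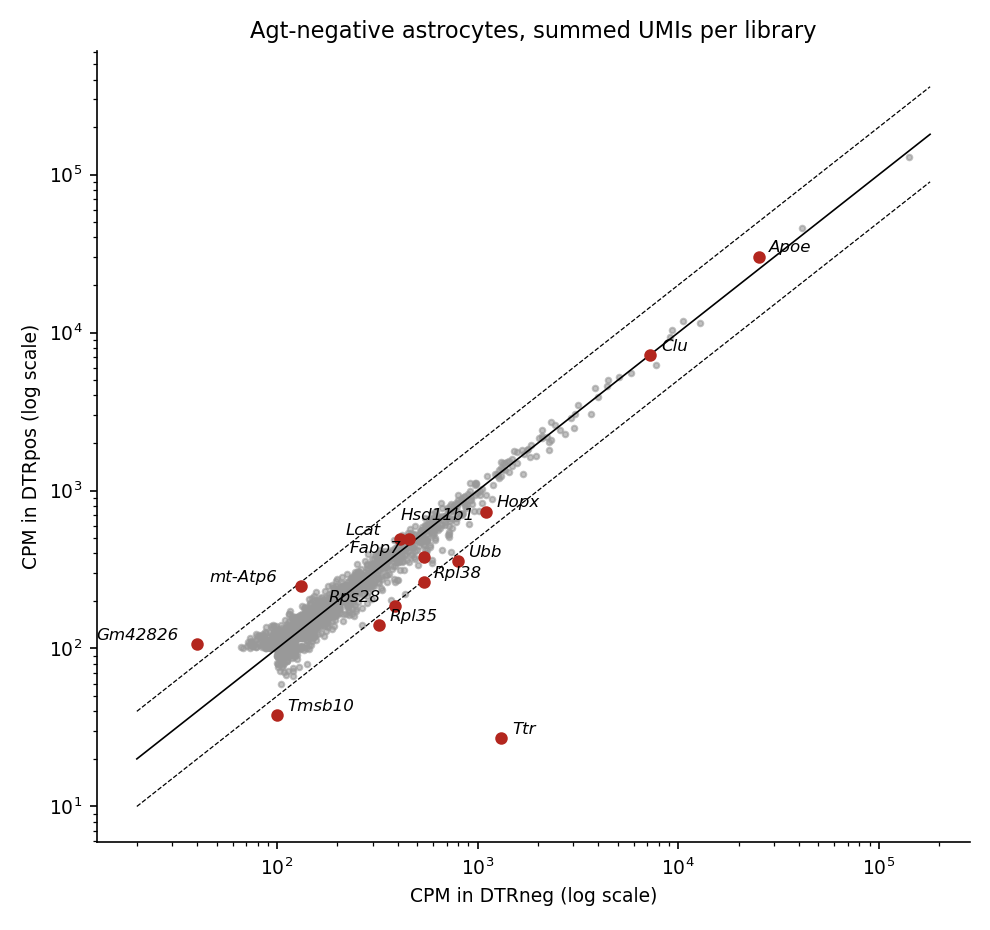
Summed CPM of Agt-negative astrocytes in DTRneg (x axis) and DTRpos (y axis), both on log scales, for 1557 genes. The solid line marks equal levels and the dashed lines a 2-fold ratio; Ttr, at 1313 and 27.2 CPM, lies farthest from them.

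The genes past 2-fold differed in the same direction in other cells as well, but Tmsb10 was nearly level in some of them. Its log2 ratio was -1.41 in the members, and in Agt-positive astrocytes it stood at 21.7 CPM in DTRneg and 10.8 CPM in DTRpos. The log2 ratio of Tmsb10 was -0.55 in oligodendrocytes, -0.06 in OPCs and -0.11 in endothelial cells. Ubb, a ubiquitin gene, stood at 797 CPM in DTRneg and 359 CPM in DTRpos, a log2 ratio of -1.15 (-1.30 to -1.01), with -1.04 in Agt-positive astrocytes, -1.14 in oligodendrocytes, -1.08 in OPCs and -1.12 in endothelial cells. The ribosomal gene Rpl35 stood at 323 and 140 CPM (-1.20), with -0.81 to -1.01 in these 4 populations. Gm42826 stood at 39.7 and 107 CPM (1.43) and at a log2 ratio of 1.42 in Agt-positive cells. mt-Atp6, a mitochondrial ATP synthase gene, stood at 132 and 250 CPM (0.92), with 0.88 in Agt-positive cells. Ttr had a log2 ratio of -5.60 in the members, -1.35 in Agt-positive cells, -1.43 in oligodendrocytes, -5.70 in OPCs and -6.02 in endothelial cells. Of the oligodendrocytes, 44.6% had a Ttr UMI in DTRneg and 14.9% in DTRpos. Without the 5 members of each library richest in choroid plexus genes the log2 ratio of Ttr moved to -2.03, and with Scrublet doublets removed to -2.18. The same 7 genes were past 2-fold without those 5 members. Tmsb10 was no longer past it with at least 5 of the 8 astrocyte genes or with Scrublet doublets removed, nor were Tmsb10, Rpl35 and Rpl38 with at least 4000 UMIs a cell. With cells weighted equally Gm42826, Rps28 and Tmsb10 were not.

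Of the other genes named by rank, Cd9, Ndufb1-ps, Eno1 and Mir6236 stood lower in DTRpos, at log2 ratios of -0.86 to -0.96. Cd9, a tetraspanin, stood at 433 and 223 CPM in the members (-0.96), at -0.31 in Agt-positive cells and at -0.92 in endothelial cells. Ccn1, Gm9925, Fuca1, Peg3, mt-Co3, Enah, Sap30l and Cep85l stood higher, at 0.58 to 0.65. Enah, which extends actin filaments, had a log2 ratio of 0.60 (0.27 to 0.94) in the members and -0.02 in Agt-positive cells. Cep85l had 0.58 (0.23 to 0.93) and -0.13. All 8 lay below 2-fold and stood at 137 CPM or less.

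Hsd11b1 and Clu were level between the libraries within counting error. For Hsd11b1 the log2 ratio of DTRpos over DTRneg was 0.13 (-0.02 to 0.28) in the members and -0.02 in Agt-positive cells, and for Clu it was -0.01 (-0.05 to 0.03) and 0.01. Lcat stood higher in DTRpos, at 0.27 (0.12 to 0.42) in the members against 0.03 in Agt-positive cells. Apoe, the main apolipoprotein of astrocytes, stood at 0.26 (0.24 to 0.28) in the members, 0.27 in Agt-positive cells and 0.37 in oligodendrocytes. Kcnj10, the potassium channel Kir4.1, stood at 115 and 165 CPM, 0.52 (0.24 to 0.80), against -0.10 in Agt-positive cells.

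Of the genes shared by astrocytes and stem cells, Hopx and Fabp7 stood lower in DTRpos. Hopx stood at 1096 CPM in DTRneg and 736 CPM in DTRpos (-0.57, -0.68 to -0.47), and Fabp7, a fatty acid carrier of radial glia, at 543 and 381 CPM (-0.51, -0.67 to -0.36). The same ratios in Agt-positive cells were -0.39 and -0.59. In oligodendrocytes the ratio of Hopx was -0.64, at levels of only 19.0 and 12.2 CPM, and that of Fabp7 was 0.004. In OPCs Fabp7 stood at 1127 and 1014 CPM, a ratio of -0.15. Lhx2, the forebrain factor, stood at 242 and 161 CPM (-0.59, -0.83 to -0.35), with -0.44 in Agt-positive cells. Of the 5 stem cell genes at 100 CPM or more, 1 lay above 0, and their median was -0.37.

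The other lists gave medians between -0.29 and 0.25, beside 0.03 over all 1557 genes, of which 850 lay above 0. All 8 dissociation and immediate early genes at 100 CPM or more stood lower in DTRpos, with a median of -0.29, against 0.03 in Agt-positive cells, where 4 of 7 lay above 0. Ubb is one of these 8 and the only one past 2-fold. All 10 genes of potassium, water and gap junctions stood higher, with a median of 0.12, and in Agt-positive cells 8 of 10 did, with a median of 0.03. The medians were 0.10 for 14 cholesterol and lipoprotein genes, 0.07 for 12 glutamate and GABA genes, 0.13 for 7 glucocorticoid genes, 0.10 for 10 metallothionein and antioxidant genes and 0.09 for 16 synaptic and secreted factors. They were -0.07 for 11 genes of Notch, Wnt, Shh and FGF signalling, -0.23 for 4 reactive astrocyte genes, -0.15 for 4 non-telencephalic and 0.12 for 3 telencephalic genes. Each interferon list had 1 gene at this level, with a log2 ratio of -0.01 for interferon gamma and 0.25 for type I interferon.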

How the data were processed

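Single-cell 3' RNA sequencing of sorted hippocampal cells was analysed from the deposited UMI counts per gene and barcode, which the authors made with Cell Ranger 6.1.0 per the file headers, on mm10 per the submitters' processing notes. These notes also name Seurat, and how it was used is not given in the sources used here. Counts of gene IDs with 1 symbol were summed (55487 IDs, 55367 symbols), and 55227 IDs matched GENCODE M21, from which GRCm38 coordinates were taken. Members and gene lists were chosen with earlier results of these data known, the ribosomal list after its values were seen.

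Counts were summed per library and group. Agt-negative and Agt-positive sums were compared with edgeR 4.0.16 in R 4.3.3 (quasi-likelihood test, TMM, filterByExpr, library as block, Benjamini-Hochberg adjustment over 9822 genes, the 13 rule genes left out). The library pairs the sums by design, as both come from the same pooled mice. The deviations of same-library sums correlated at r = 0.17 across 9831 genes. Named genes were the 12 highest and 12 lowest fold changes among genes at an adjusted p under 0.05, of the same direction in both libraries and with a mean log2 CPM of at least 5. For DTRpos over DTRneg they were the 10 highest and 10 lowest ratios at 100 CPM or more. Other genes given with values are list genes or were chosen after their values were seen. Binomial intervals are exact 95% (Clopper-Pearson) and cover counting error only. Reference cells (oligodendrocytes, OPCs, endothelial cells) had at least 4 genes of their own list and at most 1 of the 8 astrocyte genes. Doublets marked by Scrublet (Scanpy 1.11.5) were kept and removed in an alternative.

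On simulated counts of 9831 genes for the Agt comparison, with 200 genes changed, the test recovered 18% at 1.5-fold, 57.5% at 2-fold and 88% at 3-fold. Alternatives were DESeq2 1.42.0, no block, no filter on low counts, other cell limits, an Agt minimum of 3 UMIs, thinning to 2000 UMIs, and other CPM limits and scalings. Leaving out cells richest in stem cell or choroid plexus genes, and matching depth, were added after seeing the data. Some genes that meet the naming rule are not reported here, and counts and medians include them.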

Additional observations from a re-analysis of the deposited data

Results flagged for a closer look

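Of 1640 genes at 100 CPM or more, 14 had ratios of DTRpos over DTRneg in opposite directions in Agt-negative and Agt-positive astrocytes, with counting intervals on opposite sides of 0. Housekeeping and ribosomal genes such as Gapdh, Ckb and Rpl41 are among the 14, as are 4 of the genes followed by name here. With 1 library per genotype the difference was not tested. Tmsb4x, a thymosin that binds actin monomers, had a log2 ratio of -0.77 in Agt-negative and 0.31 in Agt-positive cells, a difference of -1.08. Sox4, a transcription factor of progenitors, had -0.46 and 0.64, a difference of -1.09. The immediate early gene Egr1 had -0.45 and 0.54, a difference of -0.99, and Fos had -0.18 and 0.22, a difference of -0.40. Few cells carried some of these counts: the 5 richest members held 39.7% of the Sox4 UMIs in DTRneg and 42.8% in DTRpos, and 44.7% and 58.8% of those of Egr1.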

How the results depend on the processing

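The share of gated astrocytes without an Agt UMI fell from 52.5% to 44.0% in DTRneg and from 50.9% to 42.0% in DTRpos with at least 1000 detected genes, and to 40.8% and 44.4% with at least 4000 UMIs. The 323 calls of the Agt comparison became 62 (47 higher, 15 lower) without the replicate block that pairs both sums of a library, 85 (60 and 25) with DESeq2, 102 (74 and 28) with at least 5 of 8 astrocyte genes, 63 (43 and 20) without the 5 cells richest in stem cell genes, 28 (20 and 8) after thinning, and 0 of 20461 genes with no filter on low counts. The genes called in the first 5 of these were all among the 323. The other 7 alternatives gave 229 to 433. The cause of these changes was not tested. The 7 genes past 2-fold between genotypes became 12 after thinning and 15 at 50 CPM. Depth limits single cells: at the median depth of a member, 3 counts stand for 941 CPM in DTRneg and 1060 CPM in DTRpos.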

Other observations

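Ribosomal protein genes, a group chosen after its values were seen, stood higher in Agt-negative than in Agt-positive astrocytes. Of 85 genes with symbols starting Rps or Rpl, 68 were called higher and 0 lower (edgeR, adjusted p under 0.05), 84 estimates lay above 0, and the median log2 fold change was 0.41. With cells matched for depth 55 of 84 were called, at a median of 0.33. After thinning to 2000 UMIs 6 of 83 were called, at a median of 0.30, and without the 5 cells of each sum richest in stem cell genes 10 of 85. The median mitochondrial share of a member was 3.69% in DTRneg and 3.27% in DTRpos, against 2.79% and 2.73% in Agt-positive cells, and mt-Rnr1, mt-Rnr2, mt-Nd4 and mt-Cytb were also called higher, at 0.22 to 0.28. The part of this in the result was not tested. Rps24 stood at 962 and 742 CPM in the members of DTRneg and DTRpos and at 566 and 558 CPM in Agt-positive cells.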
